A study of Mus musculus with 37 samples.

Results

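The endothelium, pericytes and blood-brain barrier of mouse brain were represented by 32 genes, chosen by symbol for their known cell type and not for any measured value. They comprise 7 genes of tight and adherens junctions, 11 receptors and surface proteins of endothelium, 7 transporters of the barrier, 2 transcription factors and 5 genes of pericytes and other mural cells. All 32 were found among the 56980 rows of the count table, all 32 passed the filter on low counts that left 19332 genes for testing, and together they held 0.108% of the counts. The libraries came from male wild type C57BL/6J mice, labelled as brain, with the medial prefrontal cortex named in the study's title. Mice were adult, with treatment starting on postnatal day 55, or adolescent, starting on postnatal day 25. They received antibiotics by mouth or stayed on water, and every mouse was injected under the skin, over 5 days, with morphine at 15 mg/kg or with saline. The labels do not name the antibiotics.

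After 2 libraries with totals of 25165 and 58764 counts were left out, 35 libraries with totals between 10630727 and 31560468 counts remained. There were 4 libraries of adults on antibiotics with morphine, 5 of adults on antibiotics with saline, 5 of adults on water with morphine and 3 of adults on water with saline. There were 5 libraries of adolescents on antibiotics with morphine, 3 of adolescents on antibiotics with saline, 5 of adolescents on water with morphine and 5 of adolescents on water with saline. Nothing in the labels says that replicates came from separate mice, so p-values measure the spread between these libraries. Levels are given as counts per 1000000 (CPM), scaled by the TMM method of edgeR, and differences as log2 fold changes from edgeR's quasi-likelihood test with p-values adjusted by Benjamini-Hochberg across all tested genes and a threshold of 0.05.

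Brain capillaries differ from those of most organs in that their endothelial cells are joined by continuous tight junctions and carry little across by vesicles, so that nutrients enter through dedicated carriers and many drugs are pumped back into the blood. Pericytes share the basement membrane with the endothelium and keep this state in place, and astrocyte endfeet wrap the vessel from outside. Neurons and glia signal to the endothelium through Wnt ligands, norrin and vascular endothelial growth factor (VEGF), and the vessels are still maturing in early life.

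The defining genes of endothelium and pericytes were measured in every library. Per kilobase of exon, taken from the GENCODE M21 annotation, the median level over the 35 libraries was 22.3 CPM for Cldn5, which encodes the claudin that seals the junctions, 22.2 CPM for the pericyte gene Rgs5 and 24.0 CPM for Vtn, the vitronectin that pericytes secrete. Other endothelial markers were lower, at 5.09 CPM per kilobase for Flt1, 3.43 for Cdh5, 2.97 for Pecam1 and 2.41 for Tie1. So were the other pericyte genes, at 4.31 for Pdgfrb, 1.22 for Kcnj8 and 1.12 for Abcc9. The highest levels per kilobase were 30.0 CPM for Slc3a2 and 28.1 CPM for Slc2a1. These encode the heavy chain of the amino acid carrier and the glucose carrier GLUT1, and neither is confined to vessels, since other brain cells also make them. The lowest were 0.758 CPM for Emcn, the endothelial sialomucin endomucin, and 0.0865 CPM for Aplnr, the apelin receptor. The ratio of the highest to the lowest of the 8 group means was 9.89 for Aplnr and 2.32 for Vwf (von Willebrand factor), and for the other 30 genes it lay between 1.09 for Abcc9 and 1.61 for Kdr. Reads of Abcb1a and Ly6c1 can be shared with their close copies Abcb1b and Ly6c2, and no source used here says how such reads were counted, so the levels of those genes are uncertain.

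Most of the genes passed in no comparison of the 35 libraries, and their levels there are given by role. Among the junction genes, Cldn5 had 22.5 to 50.2 CPM with a median of 31.5, and occludin (Ocln) had 5.88 to 10.8 CPM with a median of 7.84. Further genes encode adhesion molecules of the contacts between endothelial cells. Cdh5, which encodes VE-cadherin, had 8.57 to 22.5 CPM with a median of 14.4, Pecam1 had 15.5 to 39.9 CPM with a median of 18.5, and Esam had 11.3 to 18.01 CPM with a median of 13.97. Cgnl1, which encodes paracingulin, a protein beneath the junction, had up to 33.5 CPM with a median of 16.9. None of these 6 genes passed in an averaged comparison of the 35 libraries.

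Tek, the receptor for the angiopoietins, had 10.7 to 20.03 CPM with a median of 15.2, and its partner Tie1 had 7.37 to 17.8 CPM with a median of 11.8. Flt1 had 52.0 to 86.0 CPM with a median of 68.7, and Eng, a co-receptor for the TGF-β family, had 18.1 to 36.4 CPM with a median of 25.0. Ly6c1 and Ly6a encode surface proteins used as markers of mouse endothelium. Ly6c1 had 27.2 to 41.4 CPM with a median of 32.9, and Ly6a had 12.03 to 22.7 CPM with a median of 16.4. Vwf, stored in endothelial granules and best known from larger vessels, had 12.9 to 73.8 CPM with a median of 21.6, the widest range relative to its lowest value among these 7 genes. Of the transcription factors, Sox17 had 4.66 to 10.6 CPM with a median of 7.47 and Foxq1 had 3.54 to 8.11 CPM with a median of 5.66.

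Of the mural genes, the PDGF receptor Pdgfrb, through which endothelium recruits pericytes, had 19.4 to 36.5 CPM with a median of 23.6. Kcnj8 and Abcc9 encode the pore and the regulatory subunit of a potassium channel of pericytes. Kcnj8 had 2.24 to 4.41 CPM with a median of 3.11, and Abcc9 had 7.21 to 12.9 CPM with a median of 9.38. Vtn had 33.9 to 128 CPM with a median of 48.8. All of these genes were above 0 in every library.

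The levels of the vascular genes differed between libraries of the same group. For each library the mean deviation of the 27 endothelial genes from their means over all libraries, on the scale of log2(CPM + 0.5), ran from -0.24 to 0.38. The highest value belonged to adult antibiotics morphine replicate 1, which had the highest level of its group for 23 of the 32 genes. The same was seen for 29 of 32 genes in adolescent antibiotics saline replicate 5 and for 23 of 32 in adolescent water saline replicate 3. In whole tissue, more cells of a type and more RNA per cell cannot be told apart.

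Other tissue also varied. The summed level of 17 markers of meningeal and perivascular fibroblasts was 565 CPM in adult antibiotics morphine replicate 1 and 456 CPM in adult water morphine replicate 5, against 116 to 280 CPM in the 32 libraries that remain when adolescent water saline replicate 1 is also set aside. That adolescent library held 1808 CPM of 10 striatal markers, against 211 to 279 CPM in those 32, and 20351 CPM of 10 markers of mature oligodendrocytes and myelin, against 1255 to 6783 CPM. For 14 smooth muscle markers the sum was 529 CPM in adult antibiotics morphine replicate 1, against 53.4 to 255 CPM in those 32. Counts of pancreatic islet hormones other than Sst were above 20 in 7 adolescent libraries and in no adult library. Of 14 choroid plexus and ependymal markers, 7, Ttr and Folr1 among them, had medians below 0.1 CPM. So did 5 of 12 blood cell markers, including S100a8 and Cd3e. The 14 choroid plexus and ependymal markers summed to 45.8 CPM in adult antibiotics saline replicate 4 and 42.2 CPM in adolescent water saline replicate 1. The sum was 24.4 CPM in adolescent water morphine replicate 5 and 4.48 to 12.2 CPM in the other libraries. A further fit left out adult antibiotics morphine replicate 1, adult water morphine replicate 5 and adolescent water saline replicate 1. These 3 libraries were chosen after the data were seen, and the fit is given beside the counts it changes.

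**Figure D1:**
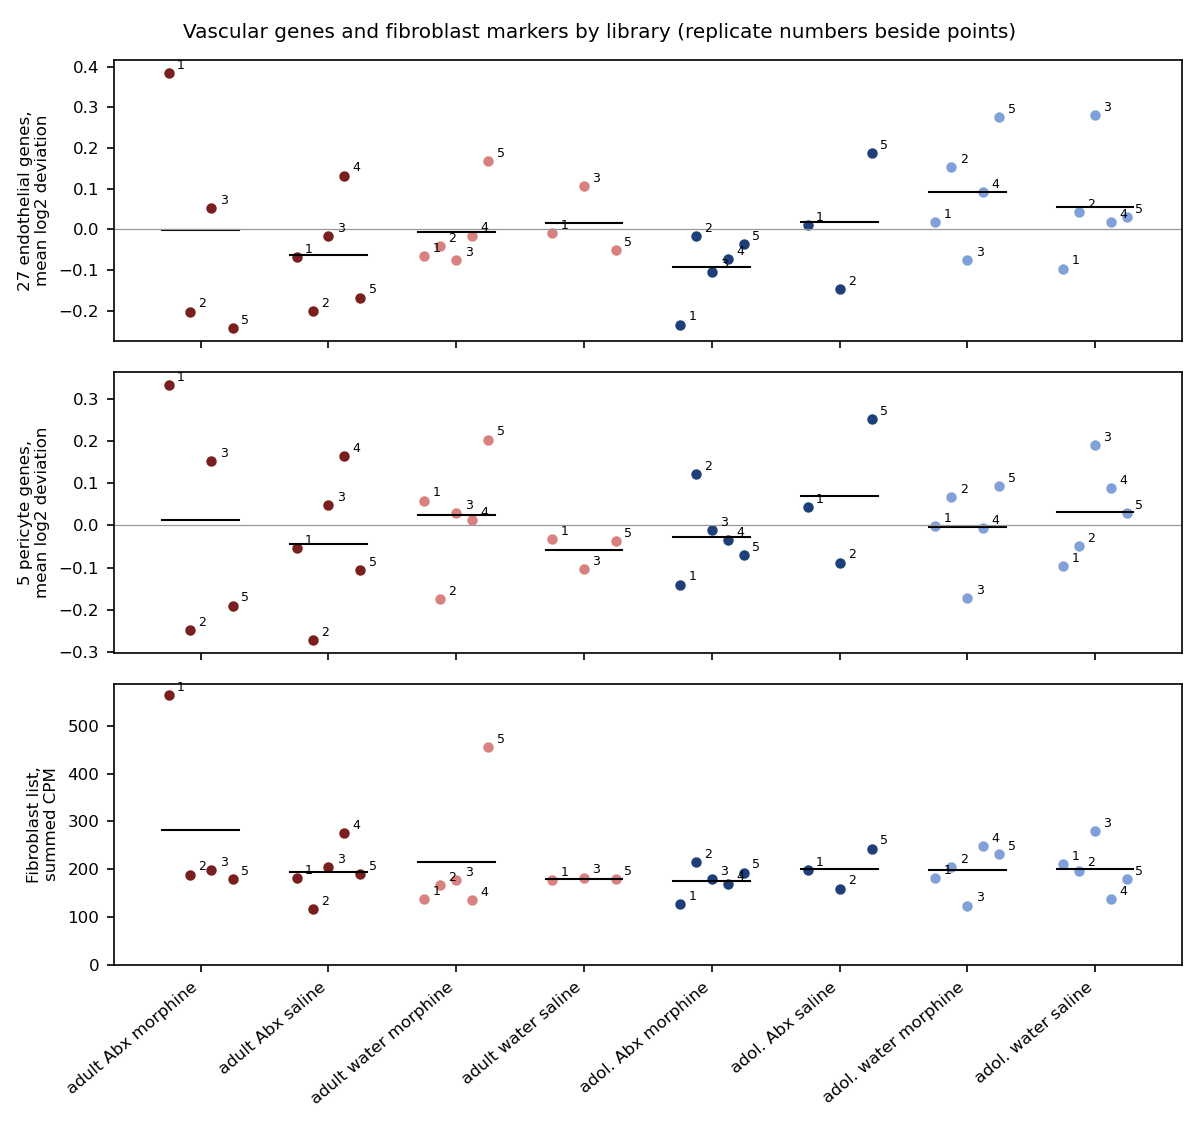
Each point is a library, numbered by replicate, in the 8 groups along the x axis, with a line at the group mean; the y axes show the mean log2 deviation of 27 endothelial genes (top), of 5 pericyte genes (middle) and the summed CPM of the fibroblast markers (bottom). Adult antibiotics morphine replicate 1 is highest in all 3 panels, at 0.38, 0.33 and 565 CPM.

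The first comparison was of adult with adolescent cortex, averaged over the 4 treatments. In adults the lipid carrier Mfsd2a, the pericyte gene Rgs5, the amino acid carrier Slc7a5 and the receptors Kdr and Aplnr were lower, and the efflux pump Abcb1a was higher. These 6 of 32 genes make 18.8%, against 20.3% of all genes tested, so the share was near the background. In the lower direction it was 5 of 32 genes, with a background of 11.2%, and in the higher direction 1 of 32, with a background of 9.11%. The median log2 fold change was -0.01 over the 32 genes and 0.00 over all genes.

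**Figure D2:**
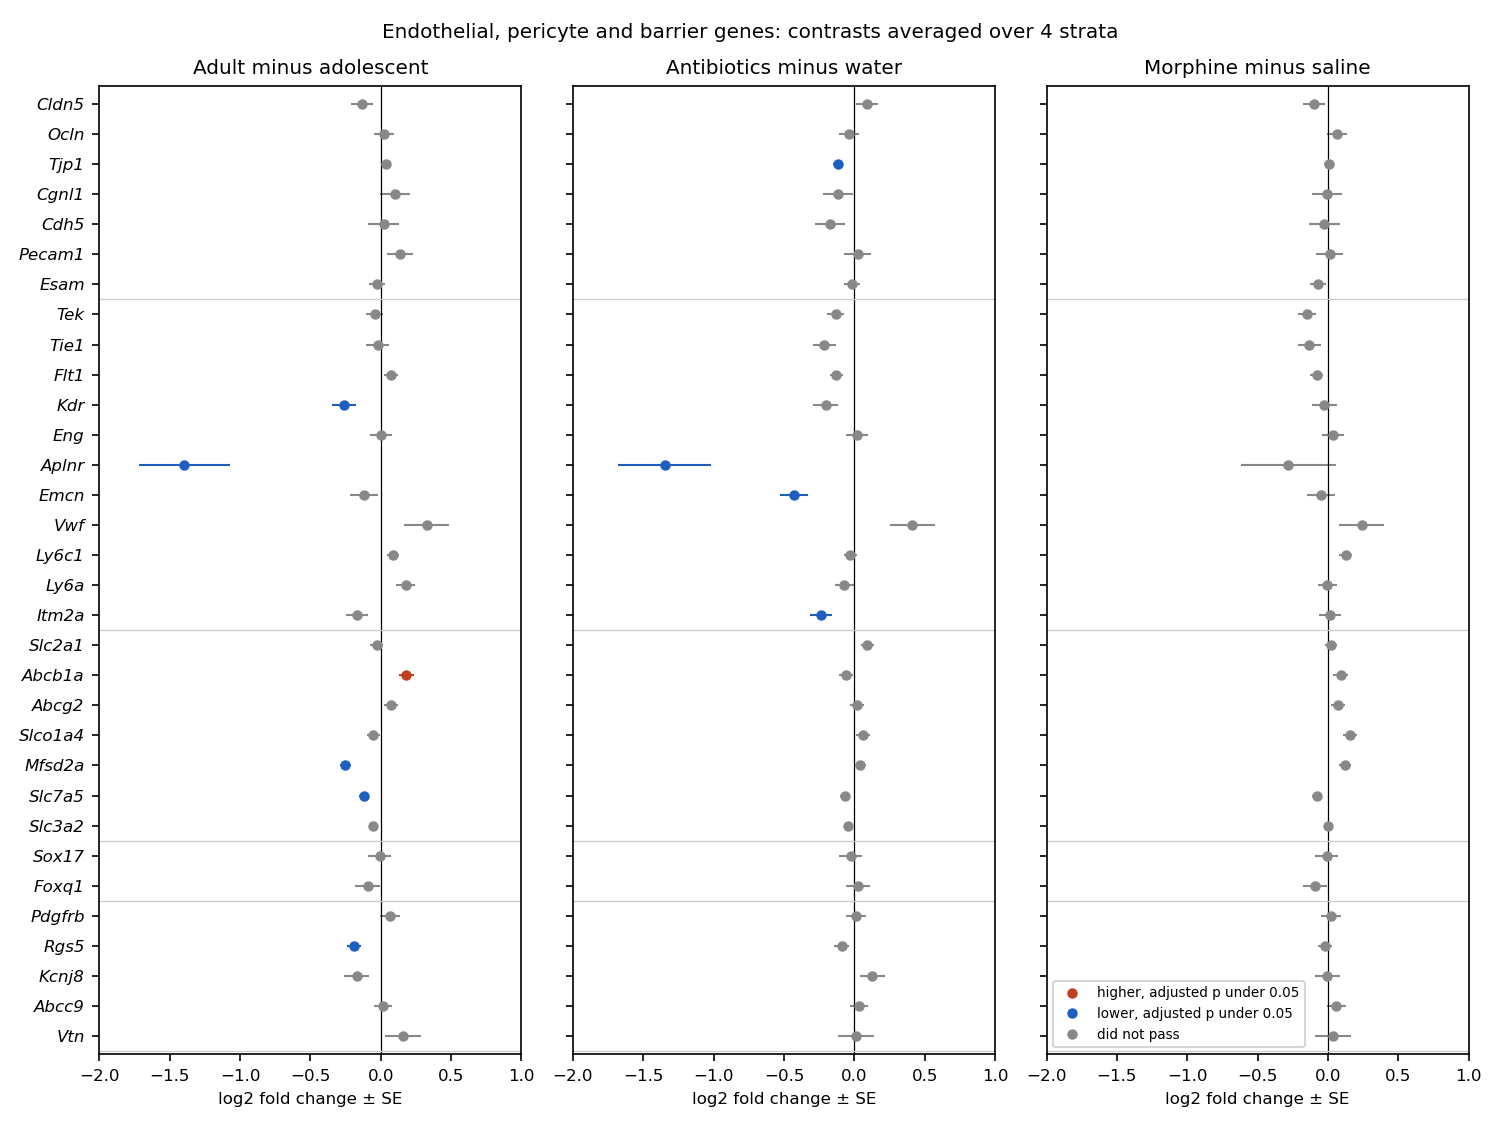
Log2 fold change ± SE (x axes) of each of the 32 genes (y axis, grouped by role) for adult minus adolescent, antibiotics minus water and morphine minus saline, each averaged over 4 pairs of groups in the fit of 35 libraries. Colour marks the genes with an adjusted p under 0.05: 6 in the comparison by age, 4 by antibiotics and 0 by morphine.

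Among the transporters, Mfsd2a had the smallest adjusted p. Mfsd2a carries lysophosphatidylcholine with docosahexaenoic acid into the brain and restrains vesicle transport across brain endothelium. Its level in the 17 adult libraries ran from 15.5 to 23.4 CPM with a median of 17.4, against 19.0 to 26.8 CPM with a median of 22.0 in the 18 adolescent libraries. The difference was -0.25 ± 0.04 (SE) on the log2 scale, with an adjusted p of 3.55e-05 in edgeR's quasi-likelihood test. It was past the threshold in each of the 35 fits that left out 1 library and in all 7 other settings tried.

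In the separate treatments, Mfsd2a was the only gene of the 32 past the threshold by age. On water with morphine it had 19.7, 16.6, 17.0, 16.1 and 15.5 CPM in adults, against 23.0, 19.99, 23.1, 26.8 and 22.6 CPM in adolescents. Every adult library lay below every adolescent library, and the log2 difference was -0.44 ± 0.08 (adjusted p = 0.00195, edgeR, with 0.626% of all genes called). On water with saline it had 17.4, 18.2 and 17.0 CPM in adults, against 24.5, 21.0, 22.5, 19.2 and 21.1 CPM in adolescents, again without overlap. That difference was -0.31 ± 0.09 (adjusted p = 0.0432, edgeR, with 3.39% of all genes called), and it stayed past the threshold in 16 of the 35 fits that left out 1 library.

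On antibiotics Mfsd2a did not pass by age with either injection. With saline, adults had 16.3, 16.7, 15.6, 18.9 and 18.6 CPM, against 20.3, 19.0 and 21.8 CPM in adolescents. The groups did not overlap, but the difference of -0.24 ± 0.09 did not pass (adjusted p = 0.154, edgeR, with 1.39% of all genes called). With morphine, adults had 23.4, 20.4, 22.3 and 21.0 CPM, against 23.0, 21.9, 22.1, 22.8 and 19.8 CPM in adolescents. These groups overlapped throughout and differed by -0.01 on the log2 scale, with 1.87% of all genes called. At an unadjusted p under 0.05 there were 4 of the 32 genes on antibiotics with saline and 8 on antibiotics with morphine, against 2838 and 3041 of all 19332 genes, and DESeq2 called 0 and 1 of the 32. The adult mean with antibiotics and morphine, 21.8 ± 1.32 CPM (SD, n = 4), lay within the range of the 4 adolescent group means, 20.4 to 23.1 CPM, and the other 3 adult means lay between 17.0 and 17.5 CPM. The test of whether the age difference depended on antibiotics gave 0.25 ± 0.08 on the log2 scale. In edgeR's quasi-likelihood test the unadjusted p for Mfsd2a alone was 0.00466, and the p adjusted over all genes was 0.941.

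**Figure D3:**
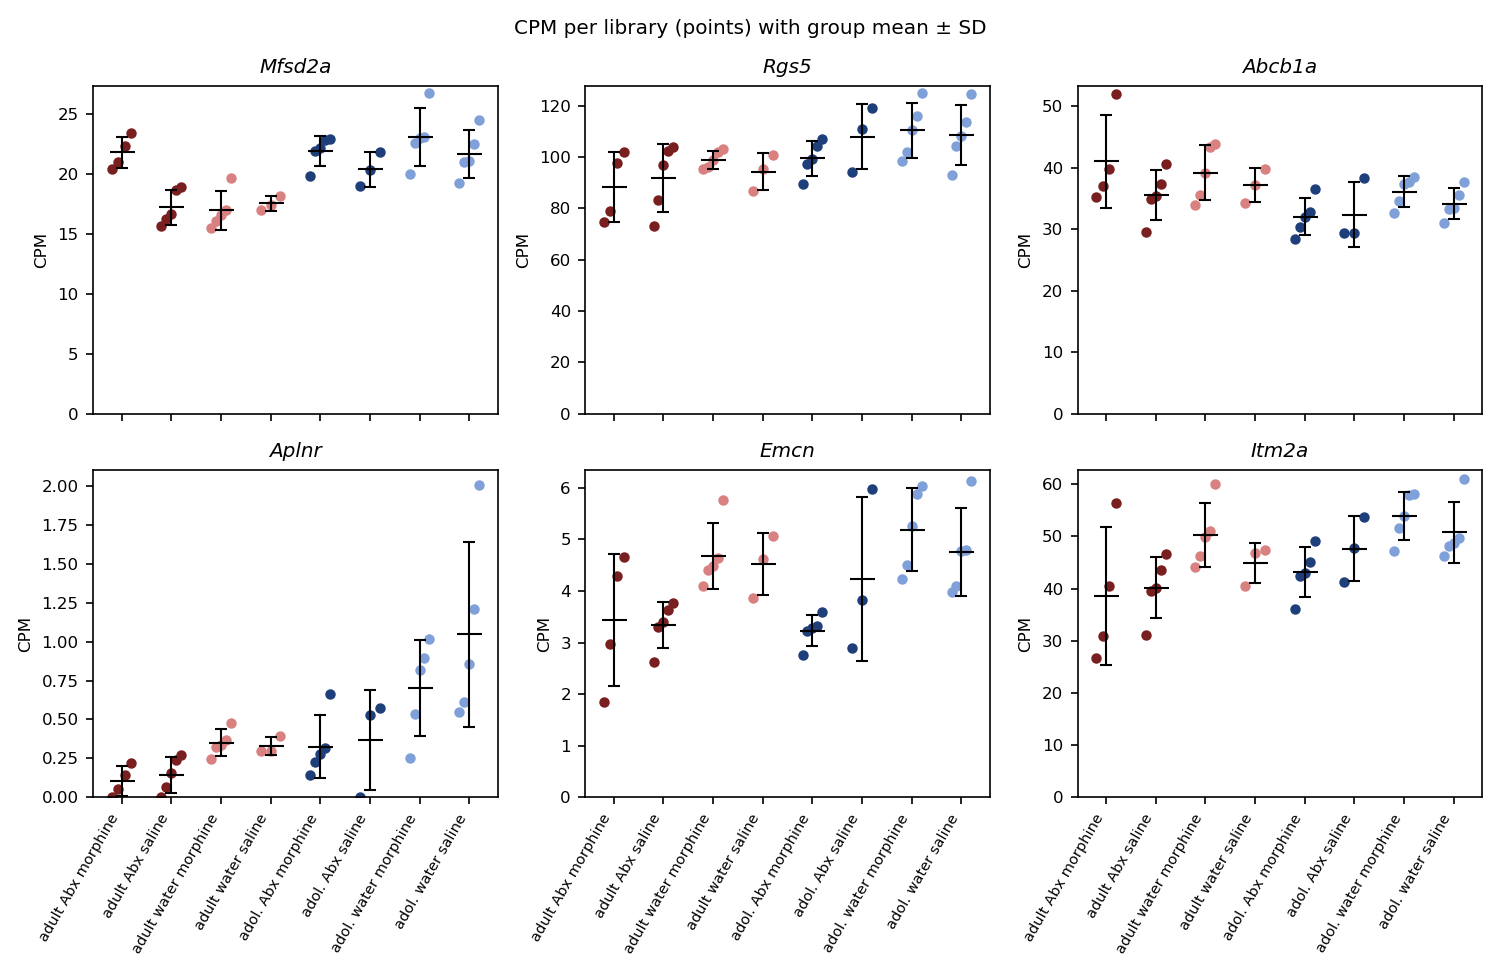
Levels in CPM (y axes, starting at 0) of Mfsd2a, Rgs5, Abcb1a, Aplnr, Emcn and Itm2a in each library (points) of the 8 groups (x axes), with group mean ± SD (lines). Mfsd2a lies between 15.5 and 19.7 CPM in 3 of the adult groups and between 19.0 and 26.8 CPM in the adolescent groups, and adults given antibiotics and morphine lie at 20.4 to 23.4 CPM.

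Abcb1a encodes P-glycoprotein, the efflux pump of the barrier, of which morphine is a known substrate. It had 29.5 to 52.0 CPM with a median of 37.2 in adults, against 28.4 to 38.5 CPM with a median of 33.3 in adolescents. The ranges overlapped, and the difference of 0.18 ± 0.05 had an adjusted p of 0.0129 in edgeR's quasi-likelihood test. With a term for islet reads in the model or with no filter on low counts it no longer passed, with adjusted p values up to 0.0847. In the 4 treatments its log2 difference was 0.12, 0.12, 0.13 and 0.36, the last in mice given antibiotics and morphine.

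Slc7a5 is the light chain of the carrier for large neutral amino acids. It had 62.3 to 86.2 CPM, median 77.8, in adults, against 71.4 to 93.9 CPM, median 81.8, in adolescents. The ranges overlapped widely, the difference was -0.12 ± 0.04 (adjusted p = 0.0141, edgeR), and without adolescent antibiotics saline replicate 1 the adjusted p was 0.0545. Its partner Slc3a2 differed by -0.05 and did not pass. The glucose carrier Slc2a1, the efflux pump Abcg2 and the organic anion carrier Slco1a4 differed by -0.03, 0.07 and -0.05, and none passed.

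Rgs5, a regulator of G protein signalling that marks pericytes, was the gene of 5 in its group that passed. It had 73.2 to 104 CPM, median 96.7, in adults, against 89.6 to 125 CPM, median 106, in adolescents. The difference was -0.19 ± 0.05 (adjusted p = 0.00704, edgeR), between -0.23 and -0.16 in the 4 treatments, and it passed in each fit that left out 1 library. The other 4 mural genes did not pass. The receptor Pdgfrb differed by 0.07, Kcnj8 and Abcc9, which form a potassium channel of pericytes, by -0.17 and 0.02, and Vtn by 0.16. Without adult antibiotics morphine replicate 1 the value for Vtn was 0.02, and in the fit of 32 libraries it was -0.04.

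Among the receptors, Kdr encodes the main signalling receptor for VEGF on endothelium. It had 8.67 to 21.0 CPM, median 12.04, in adults, against 12.3 to 22.5 CPM, median 15.0, in adolescents. The highest adult value was that of adult antibiotics morphine replicate 1, and the next highest adult library had 16.6 CPM. The difference was -0.26 ± 0.09 (adjusted p = 0.0314, edgeR), and in the fit of 32 libraries -0.38 ± 0.06 (adjusted p = 1.83e-05). It did not pass with no filter on low counts (adjusted p = 0.0689) or in 5 of the 35 fits that left out 1 library, namely those without adult antibiotics morphine replicate 2 or 5, adult water saline replicate 5, adolescent antibiotics saline replicate 5 or adolescent water saline replicate 3. Flt1, the decoy-like receptor for VEGF, differed by 0.07 and did not pass.

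Aplnr was barely detected. Single libraries held 0 to 6 counts in adults, against 0 to 32 counts in adolescents, or medians of 0.246 and 0.562 CPM. Levels were lower in adults by a log2 difference of -1.39 ± 0.33 (adjusted p = 0.00214, edgeR), with all 4 treatments between -1.65 and -0.97. At such counts the fitted fold change depends on the small constant that the fit adds to counts. The remaining receptors and surface proteins did not pass, and their differences lay between -0.17 for Itm2a and 0.33 for Vwf. Ly6a, a surface protein of brain endothelium, was nearest to the threshold, at 0.18 ± 0.07 (adjusted p = 0.0569, edgeR), and it passed in 7 of the 35 fits that left out 1 library, with an adjusted p of 0.0131 without adult antibiotics morphine replicate 5. It also passed in DESeq2 (adjusted p = 0.0447) and with the islet term in edgeR (adjusted p = 0.0454). Vwf was at 0.20 without adult antibiotics morphine replicate 1 and at 0.12 in the fit of 32 libraries.

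None of the junction genes or transcription factors passed by age in the fit of 35 libraries. The 7 junction genes lay between -0.13 for Cldn5 and 0.14 for the adhesion molecule Pecam1, with a median of 0.02. Pecam1 was at 0.05 without adult antibiotics morphine replicate 1 and at 0.02 in the fit of 32 libraries. Ocln differed by 0.02 and the scaffold protein Tjp1 (ZO-1) by 0.04. Sox17 and Foxq1, transcription factors of brain endothelium, differed by -0.01 and -0.09. In the fit of 32 libraries, 10 of the 32 genes passed, 1 higher and 9 lower, against 26.1% of all genes tested there. The 4 added were Cldn5 at -0.22, Itm2a at -0.26, Slco1a4 at -0.11 and Slc3a2 at -0.08. Of these, Cldn5 and Itm2a also passed when adult antibiotics morphine replicate 1 alone was left out (adjusted p = 0.0326 and 0.0078, edgeR). Slc3a2 passed with the islet term (adjusted p = 0.0409, edgeR). The libraries left out were themselves extreme in the 32 genes. Adult antibiotics morphine replicate 1 and adult water morphine replicate 5 were highest in their groups for 23 and 18 of them. Adolescent water saline replicate 1 was lowest in its group for 20. Fits without these libraries are therefore no separate support for lower levels in adults.

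The sequences before the annotated start of 3 genes that were lower in adults are given so that the motifs looked for can be seen in place. They are the 250 bases upstream of the RefSeq start on build GRCm38.p6, which covers 22 of the 32 genes. Each is written 5′ to 3′ in the direction of the gene, and capitals mark matches, on either strand, to CCGGAA (the core bound by ETS factors), CTTTGA (by TCF/LEF factors of the Wnt pathway) or ACAATG (by SOX factors). The motifs were chosen with the results known, and no match of one overlapped another in these sequences.
Mfsd2a chr4:122961189-122961438, strand -: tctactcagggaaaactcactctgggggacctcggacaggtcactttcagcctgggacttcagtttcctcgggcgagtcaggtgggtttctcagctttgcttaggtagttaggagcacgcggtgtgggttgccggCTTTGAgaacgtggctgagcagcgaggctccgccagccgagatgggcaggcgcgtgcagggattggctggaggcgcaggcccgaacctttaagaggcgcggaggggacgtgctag
Rgs5 chr1:169655251-169655500, strand +: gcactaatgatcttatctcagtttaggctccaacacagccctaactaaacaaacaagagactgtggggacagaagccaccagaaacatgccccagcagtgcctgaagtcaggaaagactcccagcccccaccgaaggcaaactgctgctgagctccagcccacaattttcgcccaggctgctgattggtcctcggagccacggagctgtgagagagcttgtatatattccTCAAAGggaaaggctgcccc
Kdr chr5:75978456-75978705, strand -: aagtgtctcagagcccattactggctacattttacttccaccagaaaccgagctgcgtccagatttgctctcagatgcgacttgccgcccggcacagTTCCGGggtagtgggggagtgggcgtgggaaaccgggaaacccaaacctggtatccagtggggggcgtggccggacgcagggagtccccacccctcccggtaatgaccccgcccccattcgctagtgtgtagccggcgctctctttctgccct
Mfsd2a and Rgs5 each hold 1 TCF/LEF match, starting at positions -115 and -20 from the start of the gene, and Kdr holds 1 ETS match at position -153. Abcb1a, which was higher in adults, holds 2 TCF/LEF matches, at -153 and -58 from a RefSeq start that was not found in the GENCODE M21 transcripts, and its sequence is not shown. Slc3a2, which did not pass by age, holds 1 at -189. The TCF/LEF letters were found in 4 of the 22 genes and in 4544 of 32851 promoters of the same length, the ETS letters in 3 of 22 and 3952 of 32851, and the SOX letters in 2 of 22 and 3512 of 32851. A match is a description of the letters in this window only.

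The second comparison was of antibiotics with water, averaged over the 4 groups of age and injection. With antibiotics the endothelial genes Emcn, Aplnr and Itm2a and the junction scaffold Tjp1 were lower, and no gene was higher. These 4 of 32 genes make 12.5%, against 10.2% of all genes tested. In the lower direction the background was 5.05%. The median log2 fold change was -0.03 over the 32 genes and 0.00 over all genes.

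Emcn encodes endomucin, a sialomucin on the surface of capillary and venous endothelium. It had 1.85 to 5.98 CPM with a median of 3.31 in the 17 antibiotics libraries, against 3.87 to 6.13 CPM with a median of 4.62 in the 18 water libraries. All but 3 of the 17 antibiotics libraries lay below the lowest water library, and the difference was -0.43 ± 0.10 (adjusted p = 0.00371, edgeR). It passed in each fit that left out 1 library and in all 7 other settings. It was between -0.69 and -0.16 in the 4 pairs of groups.

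In adolescents given morphine, Emcn had 2.75, 3.31, 3.27, 3.58 and 3.23 CPM on antibiotics, against 4.23, 5.88, 5.26, 4.50 and 6.04 CPM on water. All 5 antibiotics libraries lay below all 5 water libraries, and the difference was -0.69 ± 0.18 (adjusted p = 0.0464, edgeR, with 1.11% of all genes called). It passed in 12 of the 35 fits that left out 1 library. In adults given morphine the levels were 4.28, 1.85, 4.65 and 2.97 CPM on antibiotics, against 4.48, 5.76, 4.41, 4.10 and 4.64 CPM on water, which overlapped and did not pass. The Emcn promoter is given for comparison with those above.
Emcn chr3:137340828-137341077, strand +: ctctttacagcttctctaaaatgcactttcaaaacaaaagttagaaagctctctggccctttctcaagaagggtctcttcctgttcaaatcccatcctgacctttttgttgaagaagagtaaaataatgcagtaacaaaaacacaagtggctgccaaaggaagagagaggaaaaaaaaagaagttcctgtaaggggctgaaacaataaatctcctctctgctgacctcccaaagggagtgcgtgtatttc
None of the searched letters occurs in that window, and shorter or other forms of these sites were not searched.

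Aplnr also differed by antibiotics. Its median was 0.221 CPM in antibiotics libraries, with 0 to 13 counts each, against 0.508 CPM in water libraries, with 3 to 32 counts each. The difference was -1.35 ± 0.33 (adjusted p = 0.00623, edgeR), and DESeq2 gave it no adjusted p. Apln, which encodes the ligand of this receptor and was not among the 32 genes, had 9.30 to 20.3 CPM, median 14.5, on antibiotics, against 18.1 to 31.0 CPM, median 24.0, on water. It was lower by a log2 difference of -0.74 ± 0.08 (adjusted p = 5.72e-07, edgeR), and by age it did not pass.

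Itm2a encodes a membrane protein that is enriched in brain endothelium. It had 26.6 to 56.4 CPM, median 42.5, on antibiotics, against 40.5 to 61.0 CPM, median 49.2, on water. The difference was -0.24 ± 0.08 (adjusted p = 0.0427, edgeR), but it passed in 18 of the 35 fits that left out 1 library, and not with the islet term, the replicate block or no filter on low counts, with adjusted p values up to 0.104. The adult antibiotics morphine group held both the highest antibiotics value, 56.4 CPM in replicate 1, and the lowest, 26.6 CPM in replicate 2.

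Tjp1 encodes ZO-1, which ties junction proteins to the cytoskeleton in endothelium and in other brain cells. It had 84.1 to 113 CPM, median 95.1, on antibiotics, against 94.6 to 120 CPM, median 103, on water. The difference was small, -0.12 ± 0.03 (adjusted p = 0.0137, edgeR), and passed in each fit that left out 1 library. The other 6 junction genes lay between -0.17 for Cdh5 (VE-cadherin) and 0.09 for Cldn5, and none passed. The transporters lay between -0.07 for Slc7a5 and 0.09 for Slc2a1, and the 5 mural genes between -0.09 for Rgs5 and 0.13 for Kcnj8, and none of these passed.

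In single pairs of groups, Mfsd2a was the other gene to pass. In adults given morphine it was higher on antibiotics, with the 4 values of 20.4 to 23.4 CPM given above, than on water, with 5 values of 15.5 to 19.7 CPM. The groups did not overlap, and the difference was 0.36 ± 0.08 (adjusted p = 0.0116, edgeR, with 1.92% of all genes called). It did not pass without adult antibiotics morphine replicate 1 (adjusted p = 0.0623) or in the fit of 32 libraries (adjusted p = 0.0723). In both of those fits Itm2a passed in its place, at -0.62 and -0.56. In the other 3 pairs it did not pass, and in adolescents given saline the difference was -0.09. In mice given saline none of the 32 genes passed in adults, with 0.031% of all genes called, or in adolescents, with 0.0103%. At an unadjusted p under 0.05 there were 4 and 2 of the 32, against 1694 and 1905 of all 19332 genes, and DESeq2 called 0 of the 32 in each.

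Receptors for VEGF and the angiopoietins were among those nearest to the threshold. Flt1 differed by -0.13 (adjusted p = 0.0924), Tie1 by -0.21 (adjusted p = 0.0995), Kdr by -0.20 and Tek, the receptor for the angiopoietins, by -0.13, all in edgeR's quasi-likelihood test. In the fit of 32 libraries these 4 passed, at -0.16, -0.29, -0.30 and -0.18, and 8 of the 32 genes were lower and 0 higher, against 13.5% of all genes called there. Leaving out adult antibiotics morphine replicate 1 alone gave 7 genes, all lower, with Flt1, Tie1 and Kdr added to the 4, against 9.27% of all genes called there. That library had the highest mean deviation of the 27 endothelial genes of all libraries. Fits without it are therefore no separate support for lower levels with antibiotics. What part the fibroblast and smooth muscle markers of that library have in the difference was not tested. Vwf, with 73.8 CPM in that library, differed by 0.41 (adjusted p = 0.107), and passed at 0.49 when adult water morphine replicate 5 was left out (adjusted p = 0.0393). Without adult antibiotics morphine replicate 1 it was 0.28 (adjusted p = 0.217).

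The third comparison, of morphine with saline, gave no gene of the 32 past the threshold, against 0.316% of all genes tested. At an unadjusted p under 0.05 there were 5 of 32, against 2120 of 19332 genes. DESeq2, which was run as an alternative, also called 0. Slco1a4, which carries organic anions, had the smallest adjusted p at 0.150 (edgeR), with a difference of 0.16 ± 0.05 and 0.12 to 0.20 in the 4 pairs of groups. Next came Mfsd2a at 0.12, Ly6c1 at 0.13, Tek at -0.15 and Slc7a5 at -0.08. Abcb1a differed by 0.09, Abcg2 by 0.07, Cldn5 by -0.10 and Slc2a1 by 0.02. The median log2 fold change was 0.00 over the 32 genes and over all genes.

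Within the 4 pairs of groups none of the 32 passed either, in edgeR or in DESeq2, with 0.331% of all genes called in adolescents on water, 0.0466% in adolescents on antibiotics and 0.0% in each adult pair. At an unadjusted p under 0.05 there were 2, 2, 1 and 4 of the 32 genes in adolescents on water, adolescents on antibiotics, adults on water and adults on antibiotics, against 2249, 1464, 559 and 1524 of all 19332 genes. The smallest adjusted p was 0.168 for Mfsd2a in adults on antibiotics, where the morphine libraries had 20.4 to 23.4 CPM and the saline libraries 15.6 to 18.9 CPM, without overlap, a difference of 0.34 ± 0.08 (edgeR). In adults on water Mfsd2a had 15.5 to 19.7 CPM with morphine and 17.0 to 18.2 CPM with saline, which overlapped. In adolescents on antibiotics 27 of the 32 differences were below 0, with a median of -0.12 against 0.00 over all genes, and Tek was lowest in p at -0.38 (adjusted p = 0.407). That group of saline libraries had 3 members, of which replicate 5 was the highest in 29 of 32 genes.

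No interaction reached the threshold for any of the 32 genes in edgeR or in DESeq2, and over all genes 0.00517% passed for age by morphine, 0.0% for age by antibiotics and 0.00517% for antibiotics by morphine. In the response to morphine, the difference between adults and adolescents was above 0 for 26 genes and below 0 for 6. The median was 0.10, against 0.01 over all genes. Many of these genes shifted together between libraries, so the signs are not separate observations. Adult antibiotics morphine replicate 1 and adult water morphine replicate 5 were highest in their groups for 23 and 18 of the 32 genes. The part of these libraries in the count was not tested. The smallest adjusted p for age by morphine was 0.731 for Slc3a2 (edgeR). For antibiotics by morphine the smallest was 0.833 for Slc2a1. At an unadjusted p under 0.05 there were 1, 1 and 3 of the 32 genes for age by morphine, age by antibiotics and antibiotics by morphine, against 1222, 950 and 1041 of all genes tested. So an effect past the threshold in 1 group and not in another, such as that of age on Mfsd2a, was not shown to differ between them.

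Genes around the barrier were described from lists chosen with the results known. Their values come from the fit of 35 libraries, and no fit that leaves libraries out is given for them. The libraries were of whole tissue, so the levels of these genes include RNA of neurons and glia. Their differences cannot be placed in vessels or read as changes at the barrier. By age, of 19 genes of Wnt and norrin signalling to the barrier, 6 were lower in adults and 0 higher, with a list median of -0.06. They included Ctnnb1 (β-catenin) at -0.22, the feedback inhibitors Nkd1 at -0.46 and Apcdd1 at -0.38, and the ligand Wnt7b at -0.31. Nkd1 had 9.37 to 16.5 CPM, median 12.6, in adults, against 11.5 to 28.9 CPM, median 17.3, in adolescents. Of 21 genes of the vascular basement membrane, 4 were lower and 0 higher. Sparc, a matrix protein that binds collagen, was lower by -0.35 and the collagen chains Col4a1 and Col4a2 by -0.24 and -0.18. The counts of these lists stand beside the 20.3% of all genes called by age.

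Of 24 other barrier transporters and transcytosis genes, 3 were higher and 6 lower in adults. Among those lower were the organic anion carrier Slco1c1, at -0.17, and the lactate carrier Slc16a1, at -0.28. Lrp1, a receptor for lipoproteins and amyloid, was higher at 0.25, and Plvap, which forms diaphragms in leaky endothelium, at 0.21. The libraries highest in fibroblast markers, adult antibiotics morphine replicate 1 and adult water morphine replicate 5, are both adult. Their part in the value for Plvap was not tested. Of 20 other pericyte genes none passed by age, antibiotics or morphine, against 20.3%, 10.2% and 0.316% of all genes called. Of 24 genes of VEGF, angiopoietin, apelin and Notch signalling, 3 were lower in adults. They were the Notch target Hey1, the pericyte recruiting factor Pdgfb and the angiopoietin Angpt1, at -0.15, -0.16 and -0.39.

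By antibiotics, 4 of those 24 signalling genes were lower and 1 higher. The counts of the lists by antibiotics stand beside the 10.2% of all genes called, 5.05% in the lower direction. Besides Apln, the sphingosine phosphate receptor S1pr1 was lower by -0.27 and Vegfa by -0.22, and Heyl, a Notch target of mural cells, was higher at 0.41. Of the 24 other transporters 7 were lower and 2 higher. Slco1c1 had 30.3 to 54.6 CPM, median 41.2, on antibiotics, against 45.2 to 67.7 CPM, median 53.5, on water, a difference of -0.35 ± 0.04 (adjusted p = 2.05e-07, edgeR). The glutamine carriers Slc38a5 and Slc38a3 were lower by -0.56 and -0.32, and Plvap was higher at 0.32. The part of adult antibiotics morphine replicate 1 in the value for Plvap was not tested. Of 19 Wnt and norrin genes 4 were lower and 0 higher: Nkd1, Wnt7a, Wnt7b and the norrin gene Ndp, at -0.30, -0.27, -0.31 and -0.29.

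Of 12 genes of astrocyte endfeet, 7 were lower with antibiotics and 1 higher, against 10.2% of all genes called and 5.05% lower. The water channel Aqp4 had 43.8 to 73.8 CPM, median 57.1, on antibiotics, against 63.4 to 119 CPM, median 75.8, on water. The difference was -0.46 ± 0.07 (adjusted p = 3.05e-05, edgeR), and the potassium channel Kcnj10 differed by -0.22. The summed level of the 12 endfoot genes ran from 3487 to 4135 CPM on antibiotics, against 3625 to 4471 CPM on water, and its part in the levels of the endothelial genes was not tested. By morphine, none of the genes in any vascular, barrier or endfoot list passed, with 0.316% of all genes called.

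**Figure D4:**
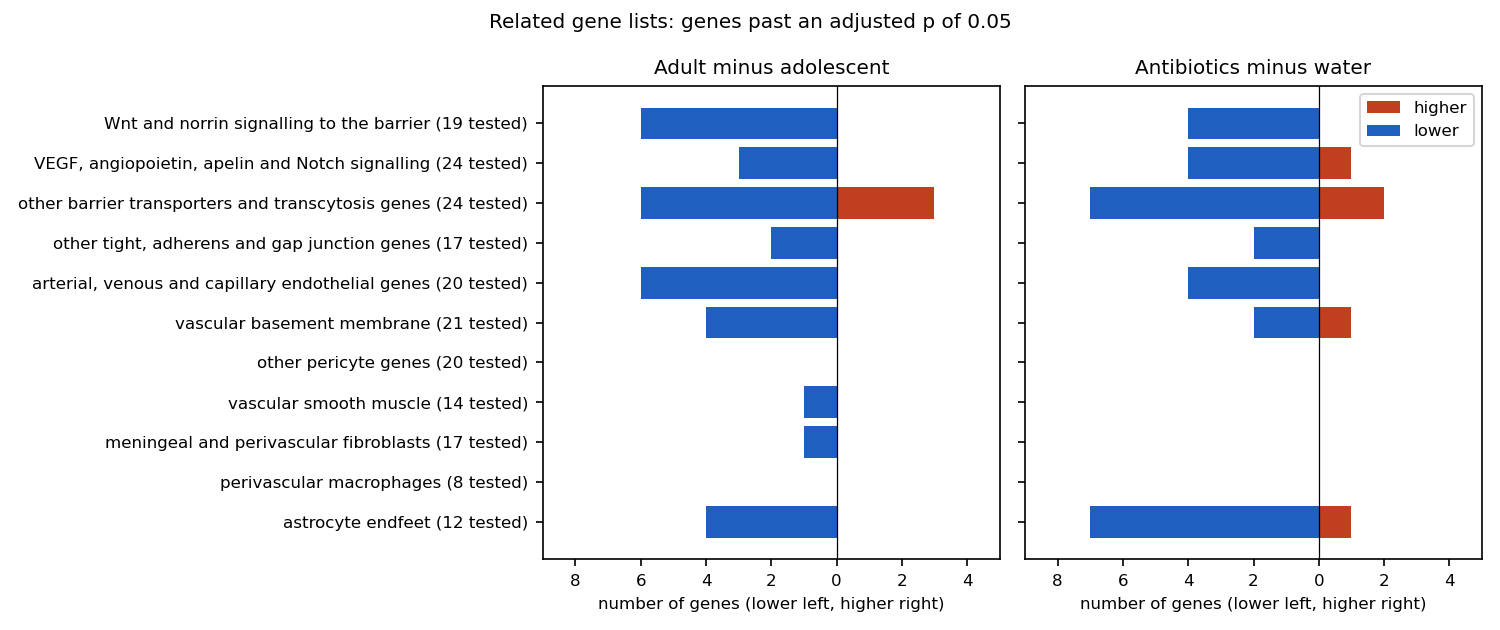
Number of genes past an adjusted p of 0.05 (x axes, lower to the left and higher to the right) in each list (y axis, with the number tested) for adult minus adolescent and antibiotics minus water. The endfoot list has 7 of 12 genes lower with antibiotics, and the list of other pericyte genes has 0 in each panel.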

How the data were processed

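Polyadenylated RNA was measured in 37 libraries, and the authors deposited unnormalised read counts for each gene. STAR 2.7.10a, the build mm10 and DESeq2 appear in the submitters' processing notes. No source used here gives the annotation release or the strand setting. Symbols were matched through GENCODE M21 for 52073 of 56980 identifiers. The counts of 35 libraries with more than 1000000 counts, whose totals had a median of 15910823, were fitted with edgeR 4.0.16 in R 4.3.3. The steps were TMM scaling, filterByExpr on the 8 groups, 1 mean per group and a robust quasi-likelihood fit. A trial on simulated counts had the same spread for every gene and no outlying library, so it cannot speak for libraries that stand apart. Of 18 contrasts, 3 were averaged over 4 pairs of groups, 12 compared 2 groups and 3 were interactions. A log2 fold change is the first group named minus the second. Alternatives were all 37 libraries, DESeq2 1.42.0, a replicate block, no filter on low counts, edgeR with the size factors of DESeq2, a term for islet reads, leaving out each library, and 32 libraries.

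The members and lists were chosen with earlier results of these data known. Every member is accounted for, and beyond them up to 4 genes per list and direction with the smallest p in an averaged contrast were open to naming. Lists of other tissues are given as sums, with single genes of them at low level named after their values were seen. No 2 libraries of a group agreed within sampling noise.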

Additional observations from a re-analysis of the deposited data

Results flagged for a closer look

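In groups of 4 or 5 libraries, the level of each gene was searched for a library far from the rest of its group, which chance alone gives in about 1 in 20 cases. Among 192 cases, 14 stood apart.

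Adult antibiotics morphine replicate 1 stood above the rest of its group for 4 genes, with 128 CPM of Vtn, 73.8 CPM of Vwf, 74.3 CPM of Slco1a4 and 21.0 CPM of Kdr, where the next libraries had 53.6, 30.2, 56.6 and 11.1 CPM. Adult water morphine replicate 5 stood above its group with 80.3 CPM of Vtn, 36.0 CPM of Vwf and 29.1 CPM of Cgnl1. Adolescent water morphine replicate 5 was highest for Slco1a4 at 69.1 CPM and for Eng, the co-receptor endoglin, at 36.4 CPM, and lowest for Slc3a2 at 94.2 CPM. Adolescent water saline replicate 3 was highest for Itm2a at 61.0 CPM and for Pdgfrb at 27.7 CPM. Adolescent water saline replicate 1, the library with striatal markers, was highest for Tjp1 at 119.6 CPM. Adult antibiotics saline replicate 4 was highest for Slc2a1 at 136.5 CPM. What sets these libraries apart was not tested.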

How the results depend on the processing

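The count of genes called by age was 6, and 5 to 8 when single libraries were left out, and by antibiotics it was 4, and 3 to 7. In the fit of 32 libraries these counts were 10 and 8, against 26.1% and 13.5% of all genes called there. For most fits that left out single libraries the share of all genes is not given here. Whether those counts moved with the background is therefore not shown. For age on water with saline the count was 1, and 0 in the fits of all 37 libraries, of 32 libraries and with no filter on low counts, and 0 to 1 when single libraries were left out. For age on antibiotics with saline it was 0, and 1, Kdr, in the fit of 32 libraries. For age on antibiotics with morphine it was 0, and 1 in DESeq2, and 0 to 1 when single libraries were left out, with 1 without adolescent antibiotics saline replicate 5, adolescent antibiotics morphine replicate 2 or adolescent water saline replicate 1. For antibiotics in adolescents given morphine it was 1, and 0 with a term for islet reads, and 0 to 1 when single libraries were left out. For antibiotics in adults given morphine it was 1, Mfsd2a, and 1 to 2 when single libraries were left out, but in the fit of 32 libraries and without adult antibiotics morphine replicate 1 the gene was Itm2a and not Mfsd2a. It was 2 without adult antibiotics morphine replicate 3, adolescent water saline replicate 1 or adult water morphine replicate 5. No called difference changed sign in any setting, and the causes of these changes were not tested.

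The replicate numbers showed no pairing over the libraries as a whole. Same-numbered libraries of different groups had a median correlation of 0.0055 in their deviations over 108 pairs. For different numbers it was 0.00078 over 425 pairs. Of 35 libraries, 9 correlated best with a library of their own number. These values cannot show whether some of the libraries are paired. With the replicate number as a block, 6 genes were called by age and 3 by antibiotics, where Itm2a was lost. By antibiotics in adolescents given morphine 0 were called, and by morphine 0. The shares of all genes called with the block are not given here.

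With 3 to 5 libraries a group, small differences within single pairs of groups could not be told from the spread. Emcn and Aplnr rest on few reads.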
